A study of Mus musculus with 6 samples.

Results

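Myo-inositol is a cyclic sugar alcohol that cells need for membrane lipids and for signalling. Described here are 7 mouse genes that make it, recycle it, carry it across membranes or build it into phosphatidylinositol: Isyna1, Impa1, Impa2, Inpp1, Slc5a3, Slc2a13 and Cdipt. They were listed by symbol for their roles and matched to Ensembl identifiers, and the list was drawn up with earlier results of these data known. All 7 were found among the 55487 genes of the count table, and all 7 were among the 16957 genes with enough counts to be tested. RNA came from whole ovaries taken at postnatal day 49. One group of 3 libraries came from wildtype mice and the other group of 3 from GalT-/- mice (GalTKO), which lack the galactose-breakdown enzyme encoded by Galt. After weaning, both groups were fed 2.5% galactose over 4 weeks, and both carried the same labelled strain background, cbl/6-ola/129. The labels do not give the design of the Galt mutation, nor say whether each library came from its own animal, so the tests speak for the spread among these libraries.

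Cells make myo-inositol from glucose phosphate through Isyna1, the inositol phosphate synthase, whose product is freed of its phosphate by inositol monophosphatase, encoded by Impa1 and Impa2. The same phosphatases, after Inpp1 has removed a phosphate from inositol bisphosphates, recycle inositol from the second messenger IP3. Slc5a3 encodes a sodium-coupled inositol transporter of the plasma membrane and Slc2a13 a proton-coupled one. Cdipt encodes phosphatidylinositol synthase, which joins inositol to a lipid backbone. Inositol monophosphatase also acts on galactose-1-phosphate, the metabolite that builds up when Galt is missing, and Slc5a3 is one of the genes that cells induce under osmotic stress.

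A pair of promoter stretches is shown, that of Isyna1 because this gene had the largest difference between the genotypes, and that of Slc5a3 because the gene shares its start with its neighbour Mrps6. Each stretch is the part of the RefSeq promoter window (GRCm38.p6, plus strand) that lies before the first annotated base of the gene or of its neighbour. Capitals mark a CCAAT box (letters CCAAT) in Isyna1 and GC boxes (letters GGGCGG) in Slc5a3, on either strand. The Isyna1 stretch lies at chr8:70594231-70594372 and the Slc5a3 stretch at chr16:92058072-92058269.
Isyna1: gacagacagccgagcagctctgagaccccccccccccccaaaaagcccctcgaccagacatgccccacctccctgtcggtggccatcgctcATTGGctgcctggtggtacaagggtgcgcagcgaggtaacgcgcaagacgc
Slc5a3: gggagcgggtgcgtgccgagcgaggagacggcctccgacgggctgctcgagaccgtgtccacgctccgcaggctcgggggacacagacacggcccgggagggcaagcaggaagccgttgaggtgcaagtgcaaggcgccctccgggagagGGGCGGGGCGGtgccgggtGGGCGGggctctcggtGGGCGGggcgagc

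The Isyna1 stretch of 142 bases, with 66.2% G and C, held 1 CCAAT box in the reverse direction and no GC box. The Slc5a3 stretch of 198 bases, with 75.8% G and C, held 4 GC boxes, a pair of them overlapping. Among 32544 RefSeq mouse promoter windows of 300 bases, longer than these stretches, 35.9% held a GC box and 37.4% a CCAAT box. GC boxes were not particular to Slc5a3, as the windows of Inpp1 and Slc2a13 held 2 and 3. The core letters of the tonicity element, TGGAAA, were in 21.5% of those windows and in none of the windows of the 4 genes with an entry, which were Isyna1, Inpp1, Slc5a3 and Slc2a13. A match of letters describes the sequence and is not a measured binding site.

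The genes are spread over the genome (GENCODE M21 on GRCm38). Isyna1 (ENSMUSG00000019139) is on chromosome 8, 70594373 to 70597290, plus strand, a compact gene of 2.918 kb. Impa1 (ENSMUSG00000027531) lies on chromosome 3, 10311956 to 10331439, minus strand, and Impa2 (ENSMUSG00000024525) on chromosome 18, 67289186 to 67322472, plus strand. Inpp1 (ENSMUSG00000026102) lies on chromosome 1, 52785427 to 52817688, minus strand. Slc5a3 (ENSMUSG00000089774) lies on chromosome 16, 92058322 to 92087473, plus strand. Slc2a13 (ENSMUSG00000036298), the longest at 305.6 kb, lies on chromosome 15, 91267696 to 91573261, minus strand. Cdipt (ENSMUSG00000030682) lies on chromosome 7, 126975914 to 126980501, plus strand. None is on chromosome 4, where Galt lies.

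The libraries held between 19232486 and 25729564 counts, fewest in GalTKO replicate 3. Mitochondrially encoded genes took 1.37% to 1.97% of counts in wildtype and 2.22% to 3.53% in GalTKO libraries, most in GalTKO replicate 3. Galt checked the labels: its level in CPM (counts scaled to library size, with TMM factors) was 17.8, 16.1 and 17.4 across the wildtype replicates and 0.155, 0.259 and 0 across the GalTKO ones. The 0 is a count of 0 in 1 library, which allows up to 3 counts. Markers of granulosa cells, theca, corpus luteum and oocytes, the cell types of an ovary, all passed the filter on low counts. Macrophage markers had a lower summed level in GalTKO libraries, 498.8 to 596.6 CPM in wildtype against 320.3 to 352.4 CPM, and 6 of 12 passed the test, all lower. Endothelial markers summed to 563.7 to 697.8 CPM in wildtype and 444.4 to 496.5 CPM in GalTKO libraries, with 3 of 8 lower. Luteal markers summed to 18679 to 25261 and 10366 to 18106 CPM, with 1 of 10 lower, while granulosa markers overlapped, at 3924 to 4862 and 4107 to 4533 CPM, with 1 of 9 higher. Surface epithelium markers summed to 162.4 to 174.8 and 180.7 to 191.3 CPM, with 1 of 7 higher. No marker of theca, oocytes, stroma or smooth muscle passed in edgeR, with 3 of the 10 oocyte markers and none of the others at an unadjusted p under 0.05. That p was also reached by 12 of 12 macrophage, 6 of 8 endothelial, 6 of 10 luteal, 6 of 9 granulosa and 3 of 7 surface epithelium markers. Over all tested genes, 17.1% reached it and 2.55% passed the test. By sign, 9 of 10 luteal markers were lower, while 5 granulosa markers were lower and 4 higher. In bulk ovary RNA, fewer cells of a type and less RNA per cell cannot be told apart.

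The comparison of genotypes put the question whether the loss of Galt goes with other levels of these genes in galactose-fed mice. None of the 7 passed in edgeR's quasi-likelihood test at an adjusted p under 0.05, a threshold that 2.55% of all tested genes passed. Isyna1 and Slc2a13 had an unadjusted p under 0.05, which 17.1% of all tested genes reached. For 3 of the 7, Isyna1, Slc2a13 and Impa2, every GalTKO library lay above every wildtype library. Groups that do not overlap, in either direction, were found for 23.7% of all tested genes. The median log2 fold change was -0.01 over the 7 genes and 0.02 over all tested genes, and the median size without its sign was 0.12 against 0.17. DESeq2's Wald test called 1 of the 7, Isyna1, where it called 6.19% of all genes it tested, and limma voom called none of the 7.

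**Figure D1:**
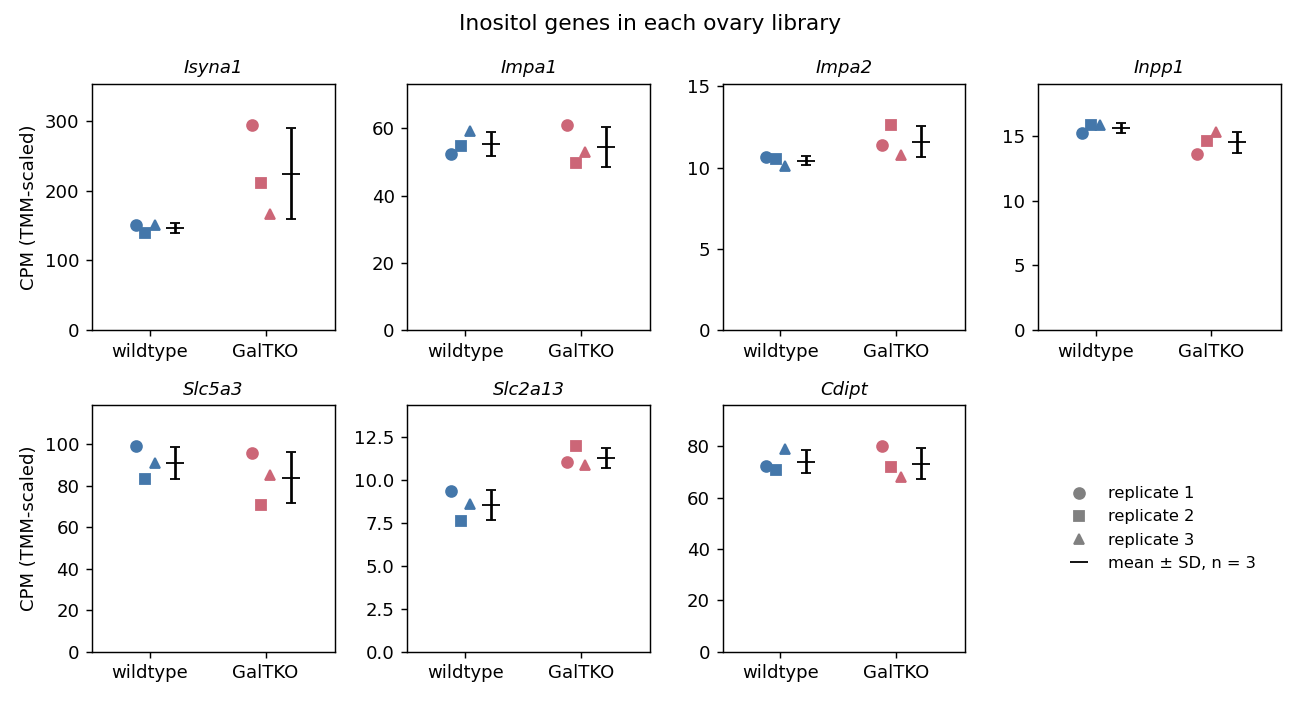
CPM (TMM-scaled, vertical axes from 0) of the 7 genes in each library, with wildtype in blue, GalTKO in red, marker shape giving the replicate and black dashes the mean ± SD (n = 3). The GalTKO points of Isyna1 spread from 165.9 to 294.7 CPM above a tight wildtype group, those of Slc2a13 lie above the wildtype group without such a spread, and those of Impa1, Inpp1, Slc5a3 and Cdipt overlap it.

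Isyna1, the enzyme of inositol synthesis, had the largest difference of the 7 and the widest spread among GalTKO libraries. Its level was 150.1, 138.6 and 150.2 CPM in the wildtype libraries (replicates 1 to 3, in this order throughout) and 294.7, 211.5 and 165.9 CPM in the GalTKO libraries. The wildtype libraries lay close together, while GalTKO replicate 1 was far above the others and GalTKO replicate 3 only just above wildtype. The means were 146.3 ± 6.66 and 224.0 ± 65.3 CPM (SD, n = 3), a coefficient of variation of 4.55% in wildtype and 29.2% in GalTKO. Counting error at these depths, 3187 to 7615 counts a library, would give 1.69% and 1.38%. The log2 fold change was 0.62 ± 0.19 (SE; 95% interval 0.17 to 1.06), a 1.53-fold higher mean, with an edgeR adjusted p of 0.163. With this SE a log2 fold change of 0.96 would have been needed to pass.

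The call on Isyna1 turned on single libraries and on the tool. It passed without GalTKO replicate 3 (log2 fold change 0.79, edgeR adjusted p = 0.0464) and in DESeq2 (0.61, adjusted p = 0.0361). Without GalTKO replicate 1 the value was 0.37 (edgeR adjusted p = 0.216). GalTKO replicate 3 also had the highest mitochondrial share, 3.53%, whose part in its Isyna1 value was not tested. With mitochondrially encoded genes left out of library sizes the log2 fold change was 0.62. TMM factors were computed again in that fit and even out such a change, so it cannot test the mitochondrial share. The Isyna1 direction was positive in all 16 alternatives, with log2 fold changes from 0.37 to 0.79 and adjusted p from 0.0361 to 0.381. These include the main fit read at an adjusted p under 0.1, where the sign could not change.

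The genes whose log2 CPM ran most like Isyna1 over the 6 libraries were Eprs, Ybx3 and Farsb, with Pearson r of 0.997, 0.995 and 0.993. These were the top of 13099 protein-coding genes with a mean of at least 1 CPM, of which 183 had r over 0.9. Eprs and Farsb encode aminoacyl-tRNA synthetase proteins and Ybx3 a nucleic acid binding protein. Their differences were smaller than that of Isyna1: Farsb read 45.7, 44.2 and 46.9 CPM in wildtype and 59.4, 52.6 and 48.7 CPM in the GalTKO libraries. The order of the GalTKO libraries is thus that of Isyna1, with replicate 1 highest. None of the 3 passed the test (edgeR adjusted p = 0.441, 0.286 and 0.267 in that order). Such likeness over 6 libraries in 2 groups is a description.

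Of the monophosphatase pair, neither gene passed. Impa1 measured 52.3, 54.6 and 59.2 CPM in wildtype and 61.1, 49.6 and 52.9 CPM in the GalTKO libraries. The groups overlapped, and the highest and the lowest value were both GalTKO libraries. Its log2 fold change was -0.02 ± 0.10 (SE; 95% interval -0.26 to 0.21; edgeR adjusted p = 0.938). Impa1's closest genes in pattern were Klhl18, Asb6 and Ddx54, with r of 0.989, 0.987 and 0.985.

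Impa2 was expressed at a lower level, at 10.6, 10.5 and 10.1 CPM in wildtype and 11.4, 12.6 and 10.8 CPM in the GalTKO libraries. The GalTKO values were all higher, replicate 3 only just above the highest wildtype value and replicate 2 well above it. Its 207 to 294 counts a library bring a counting error of 6.33% in wildtype. Its log2 fold change was 0.15 ± 0.13 (95% interval -0.13 to 0.44; edgeR adjusted p = 0.589). Per exon length, Impa2 made up 17.1%, 16.3% and 14.7% of the summed Impa1 and Impa2 level in wildtype and 15.9%, 20.5% and 17.1% in GalTKO libraries. The shares averaged 16.0 ± 1.21% and 17.8 ± 2.41% (SD, n = 3; exact two-sided permutation test, p = 0.4, where 3 against 3 cannot go below 0.1). The difference of 1.79 percentage points was 0.442 without GalTKO replicate 2, 1.13 without wildtype replicate 3 and 2.77 without GalTKO replicate 1. Impa1 was therefore the main monophosphatase transcript in every library.

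Inpp1, which feeds the monophosphatases in recycling, measured 15.2, 15.9 and 15.9 CPM in wildtype and 13.7, 14.7 and 15.3 CPM in the GalTKO libraries. The groups overlapped by a single pair of libraries, GalTKO replicate 3 and wildtype replicate 1. Its log2 fold change of -0.11 ± 0.11 (SE; 95% interval -0.36 to 0.14; edgeR adjusted p = 0.668) was the size of its SE.

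The carrier genes pointed in opposite directions, and neither passed. Slc5a3, the sodium-coupled carrier, measured 99.0, 83.4 and 91.0 CPM in wildtype and 95.7, 70.9 and 85.1 CPM in the GalTKO libraries. The groups overlapped, with replicate 2 lowest in each genotype. Its log2 fold change was -0.12 ± 0.12 (SE; 95% interval -0.40 to 0.16; edgeR adjusted p = 0.676), so the interval's upper end is 1.12-fold. Single libraries moved this value, to -0.23 without GalTKO replicate 1, -0.19 without wildtype replicate 2, -0.06 without wildtype replicate 1 and -0.01 without GalTKO replicate 2. Slc5a3 and the mitochondrial ribosomal protein gene Mrps6 share 159 bases of exon on the same strand, 1.46% of the Slc5a3 exons. Mrps6 itself measured 16.8, 15.4 and 16.6 CPM in wildtype and 22.9, 17.6 and 18.7 CPM in GalTKO libraries (log2 fold change 0.28 ± 0.13; edgeR adjusted p = 0.32). How the counting shared out reads in that exon is not stated in any source used here.

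Slc2a13, the proton-coupled carrier, measured 9.36, 7.61 and 8.62 CPM in wildtype and 11.03, 11.95 and 10.88 CPM in the GalTKO libraries. All GalTKO libraries were higher, and they lay closer together than the wildtype libraries. Its means were 8.53 ± 0.88 and 11.3 ± 0.58 CPM (SD, n = 3). The log2 fold change was 0.40 ± 0.14 (SE; 95% interval 0.09 to 0.72), a 1.32-fold higher mean, with an edgeR adjusted p of 0.191. A value of 0.66 would have been needed to pass. It kept this sign in all 16 alternatives, from 0.32 to 0.47, and passed in none (smallest adjusted p = 0.164, DESeq2). Among the 16 is the main fit read at an adjusted p under 0.1, where the sign could not change. With 180 to 285 counts a library, counting error alone is 7.0% in wildtype and 6.24% in GalTKO. The coefficients of variation were 10.3% and 5.13%, so the closeness of the GalTKO libraries is within counting error. A pair of processed pseudogenes and an rRNA gene lie in its introns on the same strand, none with more than 4 counts in a library.

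Cdipt, the phosphatidylinositol synthase gene, measured 72.4, 70.6 and 78.9 CPM in wildtype and 79.9, 71.8 and 68.0 CPM in the GalTKO libraries. The groups overlapped fully, with the top and bottom values both in GalTKO libraries. It had the narrowest interval, a log2 fold change of -0.01 ± 0.09 (SE; 95% interval -0.22 to 0.20; edgeR adjusted p = 0.958). Other genes that overlap members held few counts: Cdiptos, on the opposite strand to Cdipt, had 15 to 35 counts a library. Gm38303 beside Impa1, Gm49711 beside Slc5a3 and B430212C06Rik opposite Impa2 had at most 5. B430212C06Rik shares 1264 bases with the Impa2 exons, 23.6% of them. How reads there were counted is not stated, so its effect on the Impa2 level and share was not tested.

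**Figure D2:**
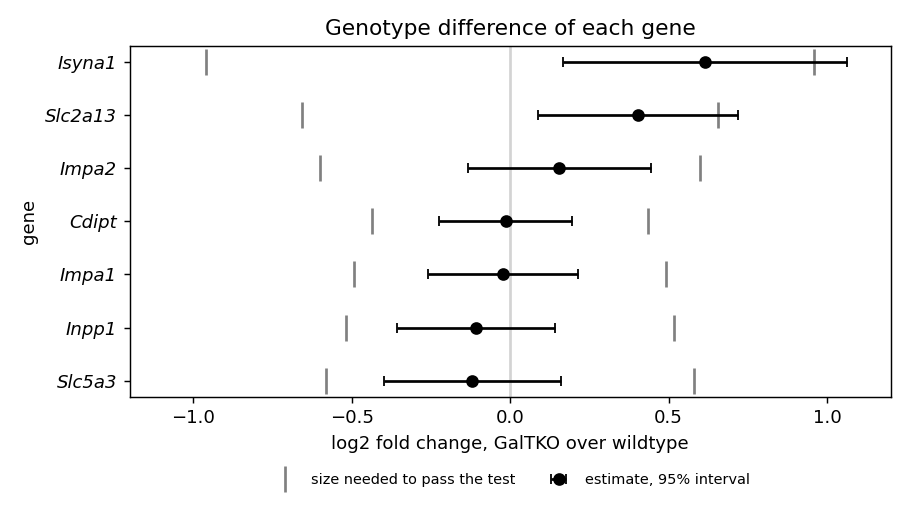
Log2 fold change of GalTKO over wildtype for each gene (points) with its 95% interval (bars), and the size that would have passed the test given that gene's standard error (grey ticks). Only the intervals of Isyna1 and Slc2a13 lie wholly above 0, at 0.17 to 1.06 and 0.09 to 0.72, and every point lies inside its grey ticks.

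Levels can be compared between the genes only per length. On the scale of CPM per kb of exon, the order was the same in both genotypes: Isyna1, Cdipt, Impa1, Slc5a3, Inpp1, Impa2, Slc2a13. Isyna1 averaged 60.1 ± 2.74 in wildtype and 92.0 ± 26.8 CPM per kb in GalTKO ovaries (SD, n = 3), above Cdipt at 28.5 ± 1.68 and 28.2 ± 2.35. Impa1 averaged 10.19 ± 0.65 and 10.03 ± 1.09, and Slc5a3 8.35 ± 0.72 and 7.69 ± 1.14 CPM per kb. The other three were low: Inpp1 averaged 2.43 ± 0.06 and 2.25 ± 0.13, Impa2 1.94 ± 0.05 and 2.16 ± 0.18, and Slc2a13 1.02 ± 0.10 and 1.35 ± 0.07 CPM per kb. The values of neighbours in this order did not overlap between libraries of 1 genotype, except those of Inpp1 and Impa2 in GalTKO ovaries. The transcript of the synthesis enzyme thus stood above that of either carrier in every library. Total RNA libraries also count unspliced RNA, and long 3' ends lower a level per length, so these are levels of reads on exons.

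**Figure D3:**
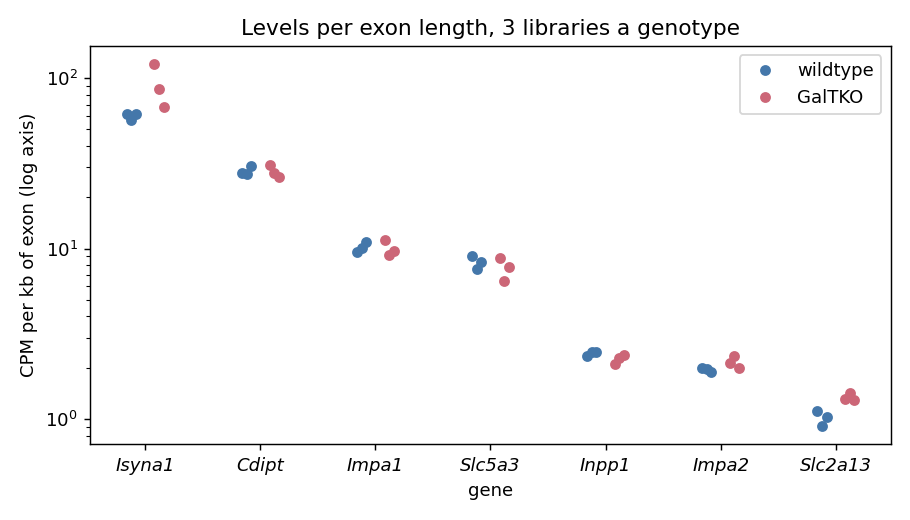
CPM per kb of exon (log axis) of each gene in the 3 wildtype (blue) and 3 GalTKO (red) libraries, ordered by the wildtype mean. Isyna1 reads 56.9 to 61.7 in wildtype and 68.1 to 121.0 in GalTKO libraries, and every GalTKO point of Slc2a13, the lowest gene, lies above its highest wildtype value of 1.12.

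Around these genes, 120 tested genes of phosphoinositide metabolism, osmolyte handling and galactose handling were listed in 9 groups, leaving Galt aside. Of them 1 rose and 3 fell in GalTKO ovaries: Sord rose, and Itpr2, Slc6a6 and Pitpnm2 fell. That is 3.33% of the 120, against 2.55% of all tested genes, where 1.13% were called higher and 1.43% lower, so the share is near the background. Of the 120, 25 (20.8%) had an unadjusted p under 0.05. Their median log2 fold change was -0.06.

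Genes that release and read the second messenger IP3 held the largest fall. Itpr2 encodes one of the IP3 receptors, the calcium channels of the endoplasmic reticulum (ENSMUSG00000030287; chromosome 6, 146108299 to 146502223). It measured 129.9, 141.7 and 155.4 CPM in wildtype and 47.4, 60.0 and 64.6 CPM in the GalTKO libraries, groups that lie far apart. The log2 fold change was -1.31 ± 0.13 (SE; 95% interval -1.61 to -1.02; edgeR adjusted p = 0.00154), a fold of 0.403, and it passed in all 15 alternative fits. The paralogs Itpr1 and Itpr3, named after their values were seen, stood at -0.17 and -0.36 and did not pass. Of 16 tested phospholipase C and IP3 receptor genes, Itpr2 alone passed, where 2.55% of all tested genes did. The list median was -0.26, and 6 members had an unadjusted p under 0.05, which 17.1% of all tested genes reached. Plcb4 was next by p, though not by size of fall, at -0.53 ± 0.18 (edgeR adjusted p = 0.188). Macrophage, endothelial and luteal marker sums were also lower in the GalTKO libraries, as given above, and their part in the Itpr2 fall was not tested.

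Among 17 genes that supply and move phosphatidylinositol, Pitpnm2, a membrane-associated phosphatidylinositol transfer protein gene, fell. It measured 154.0, 158.9 and 153.2 CPM in wildtype and 110.3, 107.3 and 126.8 CPM in the GalTKO libraries. The groups did not overlap, with a log2 fold change of -0.44 ± 0.09 (SE; edgeR adjusted p = 0.0438). The call was at the margin: it was lost without wildtype replicate 1, 2 or 3 and without GalTKO replicate 1 or 2 (adjusted p up to 0.163). Upper-quartile scaling (0.0609) and a fit of protein-coding genes alone (0.0558) also ended it. Pitpnm3 stood at 0.93 ± 0.31 and did not pass, and the list median was -0.07.

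None of the 27 tested phosphatases, 11 inositol phosphate kinases and 16 phosphoinositide kinases passed, with 3, 1 and 3 at an unadjusted p under 0.05. Over all tested genes, 17.1% reached that level. The list medians were -0.08, -0.02 and -0.13. DESeq2 called 2 of the phosphatases and 1 of each kinase list, against 6.19% of all genes it tested. No gene of these lists was called in limma voom. The phosphoinositide kinase gene Pikfyve came closest to the edgeR threshold, at a wildtype mean of 117.5 ± 9.04 CPM against 86.0 ± 7.84 CPM without Galt (log2 fold change -0.45 ± 0.10; adjusted p = 0.0581). Itpk1, which phosphorylates inositol phosphates on the way to the highly phosphorylated forms, stood at -0.47 ± 0.11 (edgeR adjusted p = 0.0735). Inpp5d, a phosphatase known mainly from blood cells, stood at -0.54 ± 0.13 (0.0849). The macrophage marker sum was lower in the same libraries, and its part in the Inpp5d value was not tested. Pip4p1 at -0.43 ± 0.12, Pik3c2b at -0.23 ± 0.10 and Ip6k2 at 0.22 ± 0.11 did not pass either.

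Inositol breakdown and other uptake genes gave 7 tested genes and none past the threshold, with 1 at an unadjusted p under 0.05 and 0 calls in DESeq2. Over all genes, 17.1% reached that unadjusted p and DESeq2 called 6.19%. Gdpd5 stood at -0.51 ± 0.18, Gdpd3 at 0.91 ± 0.56 and the list median at -0.06. Gdpd3 had only 3 to 20 counts a library, and its groups overlapped. The 10 tested genes of the first steps of the GPI anchor, which is built on phosphatidylinositol, also gave 0 calls in edgeR and in DESeq2, and limma voom called none in either list. In the GPI list 0 had an unadjusted p under 0.05. Their median was 0.05, with Pigq at -0.19 ± 0.10 and Pigh at 0.15 ± 0.11.

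Osmolyte genes bear on Slc5a3, since cells accumulate inositol, taurine and sorbitol against osmotic stress. Of 8 tested genes 1 fell, the taurine transporter gene Slc6a6 (ENSMUSG00000030096; chromosome 6, 91684053 to 91759066). It measured 567.3, 568.5 and 772.4 CPM in wildtype and 322.0, 309.9 and 375.8 CPM in the GalTKO libraries. The groups lay apart, with wildtype replicate 3 high in its group. The log2 fold change was -0.92 ± 0.15 (SE; 95% interval -1.25 to -0.59; edgeR adjusted p = 0.0169), and the call was lost without GalTKO replicate 1 (-0.89, adjusted p = 0.0625). The water channel gene Aqp1 stood at -0.62 ± 0.16 (edgeR adjusted p = 0.087). The endothelial (444.4 to 496.5 against 563.7 to 697.8 CPM), macrophage and luteal marker sums were lower in the same GalTKO libraries, and their part in the Slc6a6 and Aqp1 values was not tested. Nfat5, the transcription factor of the tonicity response, and Akr1b3, aldose reductase, which turns galactose into galactitol, stood at -0.03 and 0.05 and did not pass; both were named after their values were seen. The list median was -0.19, with 5 of 8 at an unadjusted p under 0.05, and DESeq2 called 3. Over all tested genes, 17.1% reached that unadjusted p and 2.55% passed in edgeR, and DESeq2 called 6.19% of the genes it tested.

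Galactose handling genes gave 1 rise beside the loss of Galt. Sord encodes sorbitol dehydrogenase, the polyol pathway enzyme that turns sorbitol into fructose (ENSMUSG00000027227; chromosome 2, 122234749 to 122265340). It measured 22.8, 23.0 and 18.1 CPM in wildtype and 40.8, 52.8 and 39.0 CPM in the GalTKO libraries, with no overlap. On the log2 scale the difference was 1.05 ± 0.15 (SE; 95% interval 0.71 to 1.40; edgeR adjusted p = 0.0109), 2.08-fold, and it passed in all 15 alternative fits. Of 10 tested members, Galt included, 4 had an unadjusted p under 0.05, which 17.1% of all tested genes reached, and the median was 0.07.

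**Figure D4:**
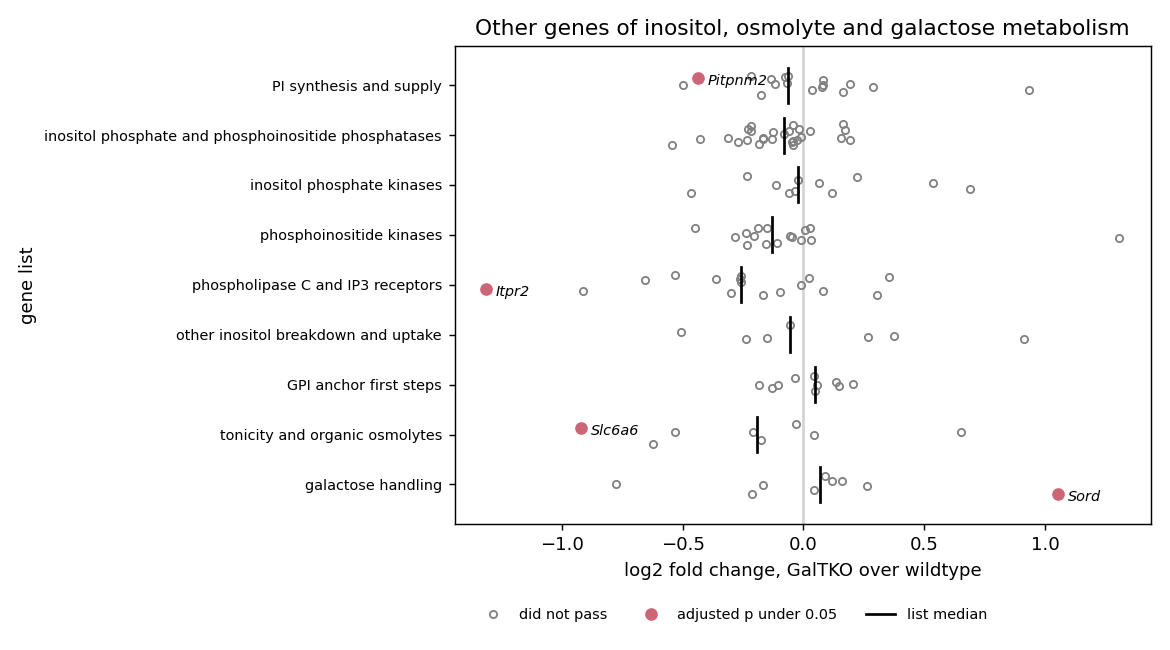
Log2 fold change (GalTKO over wildtype) of each tested gene in the 9 lists, with filled red points for genes at an adjusted p under 0.05 in edgeR, open grey points for the rest and black bars for list medians. Vertical scatter within a list is for display only, and Galt, at -6.82, counts in the median of its list but is outside the axis. Itpr2 at -1.31, Slc6a6 at -0.92 and Pitpnm2 at -0.44 lie on the low side and Sord at 1.05 on the high side of lists whose medians run from -0.26 to 0.07.

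**Figure D5:**
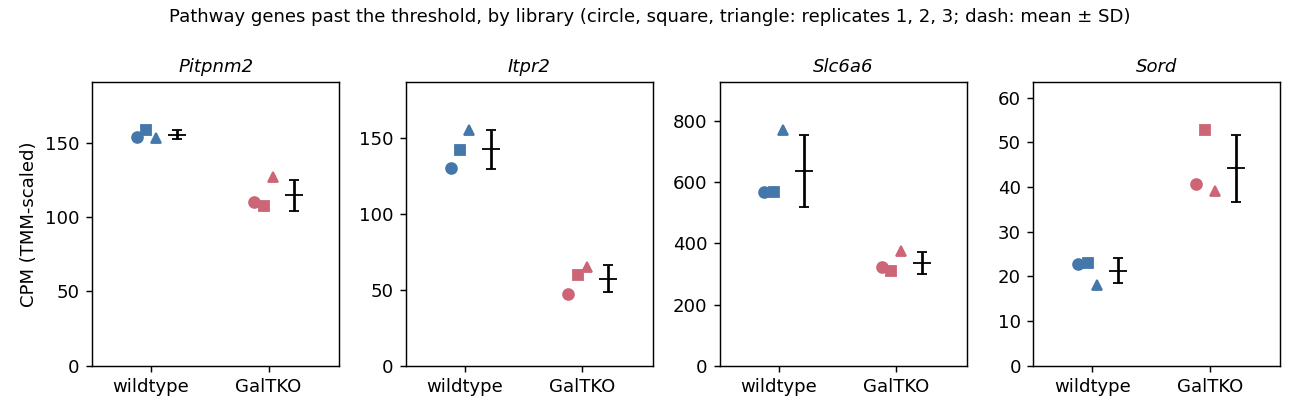
CPM (TMM-scaled, axes from 0) of the 4 listed genes past the threshold in each wildtype (blue) and GalTKO (red) library, with the mean ± SD (n = 3). In each panel the groups are separate, with Itpr2 at 129.9 to 155.4 against 47.4 to 64.6 CPM and Sord at 18.1 to 23.0 against 39.0 to 52.8 CPM.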

How the data were processed

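Total RNA from 6 ovary samples was sequenced after ribosomal RNA removal with a stranded kit, per the labels' protocols. The authors deposited raw counts per Ensembl gene. The submitters' processing notes name cutadapt 1.16, STAR 2.7.6a, featureCounts 1.6.3, DESeq2 1.30.1 and GRCm38. No source used here states their settings, strand and shared reads included. GENCODE M21 gave names, positions and lengths for 55227 of 55487 identifiers. No libraries agreed within sampling noise (chi-square per degree of freedom at least 13.3).

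Counts were tested in R 4.3.3 with edgeR 4.0.16: filterByExpr (minimum count 10, total 15), TMM scaling and a robust quasi-likelihood fit of genotype to all 6 libraries, two-sided, with Benjamini-Hochberg adjustment over 16957 genes. Calls are at an adjusted p under 0.05. The largest unadjusted p called was 0.00128, from which the size needed to pass was computed. SE is the log2 fold change over the square root of F, and 95% intervals use its t distribution. Alternatives were other scalings, filters and gene sets, DESeq2 1.42.0, limma 3.58.1 voom, the replicate number as a term and each library left out. The main fit read at an adjusted p under 0.1 was counted as a further alternative for the members and the list counts. Likeness used log2(CPM + 0.1).

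In counts simulated for this comparison with 16957 genes, 69% of 2-fold and 93% of 4-fold changes were recovered and 11 of 173 calls were false. Each simulated gene had the same spread in both genotypes. Smaller changes were not simulated, so recovery at the size of the members' differences, at most 1.53-fold, is not known.

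The members and gene lists were chosen with earlier results of these data known. Named are the members, Galt, genes overlapping a member, all called list genes, and the 2 list genes with the smallest p. For Isyna1 and Impa1, the 3 genes most alike are named too, without predicted or Rik names.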

Additional observations from a re-analysis of the deposited data

How the results depend on the processing

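Of 112 alternative values for the 7 genes, 101 kept direction and side of the threshold. The values at an adjusted p under 0.1 came from the main fit, so their direction was fixed. Impa2, Inpp1, Slc5a3 and Slc2a13 kept both throughout, with ranges of 0.089 to 0.204, -0.147 to -0.066, -0.225 to -0.011 and 0.322 to 0.474. Isyna1 passed in DESeq2 (0.61) and without GalTKO replicate 3. Leaving out a library gave 0.367 to 0.79 for Isyna1 and 0 to 1 of the 7 called, and DESeq2 called 1. Impa1 and Cdipt lay close to 0 and changed sign in 9 alternatives, none called: with upper-quartile scaling to 0.001 and 0.009, with limma voom to 0.038 and 0.027, without wildtype replicate 3 to 0.027 and 0.034, and without GalTKO replicate 2 to 0.042 and 0.001. Cdipt did so also without GalTKO replicate 3 (0.035). Leaving out a library gave -0.113 to 0.042 for Impa1 and -0.082 to 0.035 for Cdipt. The genes called over all tested numbered 433, against 1049 in DESeq2, 877 with no filter, 260 among protein-coding genes, 761 at an adjusted p under 0.1, and 165 to 742 with a library left out.

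Of the lists, the phosphatidylinositol supply list went from 1 call to 0 with upper-quartile scaling, among protein-coding genes and with the replicate block, and to 0 to 1 with a library left out. Phosphatase calls went from 0 to 2 in DESeq2 and 1 with no filter or at 0.1. Each kinase list went from 0 to 1 in all 3 of these. Leaving out a library gave 0 to 1 for inositol phosphate kinases, 1 to 2 for phospholipase C and IP3 receptors and 0 to 1 for osmolytes. Osmolyte calls went from 1 to 3 in DESeq2 and with no filter, and to 2 at 0.1.

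With the longest coding transcript as length, levels were higher, or equal for Slc5a3, in the same order. In wildtype they were 76.5 for Isyna1, 13.2 for Impa1, 2.06 for Impa2, 2.72 for Inpp1, 1.305 for Slc2a13 and 37.5 CPM per kb for Cdipt. In GalTKO they were 13.0 for Impa1, 2.52 for Inpp1, 1.73 for Slc2a13 and 37.1 CPM per kb for Cdipt.

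Same-numbered libraries share only a number: their deviations correlated at -0.040 to 0.093, and not every library correlated best with its own number. With the replicate block 321 genes and none of the 7 were called, Isyna1 stood at 0.58 (edgeR adjusted p = 0.163), and Pitpnm2 lost its call (-0.44, edgeR adjusted p = 0.0844). Counting error, 6.33% for Impa2 and 7.0% for Slc2a13 in wildtype, limits what small differences can be seen.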

Other observations

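The ratio of Isyna1 to the carrier gene Slc5a3, looked at after the values were seen, is given as a description with no test. It leaves out the other carrier gene, Slc2a13, and so does not speak for uptake as a whole. Slc2a13 was itself higher in GalTKO libraries, at 1.02 ± 0.10 CPM per kb in wildtype and 1.35 ± 0.07 in GalTKO (SD, n = 3). Per exon length, Isyna1 stood at 6.79, 7.45 and 7.40 times the Slc5a3 level in wildtype replicates 1 to 3 and at 13.8, 13.4 and 8.73 times in GalTKO replicates 1 to 3. All GalTKO libraries were higher, and GalTKO replicates 1 and 2 lay far above replicate 3. In GalTKO replicate 1 the ratio went with the highest Isyna1 level, while in GalTKO replicate 2 it went also with the lowest Slc5a3 level of the 6 libraries, 70.9 CPM.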
